A study of Homo sapiens with 10 samples.

Results

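The annexins are a family of proteins that bind membrane phospholipids when calcium is present, and 10 of them were followed here, ANXA1, ANXA3, ANXA4, ANXA5, ANXA6, ANXA7, ANXA9, ANXA10, ANXA11 and ANXA13. They were chosen by name: each symbol matched 1 Ensembl identifier among the 58050 of the TPM table, and ANXA2 is not described. Of the 10 members, 8 reached a mean of 1 TPM over all libraries and were tested, while ANXA9 and ANXA13 stayed below it. The cells were HCT116, a human colorectal carcinoma line. HCT116-WT denotes the cells with intact CD276 (5 libraries), and HCT116-CD276KO the cells edited with Cas9 and a guide against CD276 (5 libraries). The edited cells descend from a single cell clone, so that their replicates are samples of that clone and the clone cannot be told apart from the loss of CD276. A scrambled guide is named as the control of the editing procedure, but the sources used here do not say whether the sequenced HCT116-WT cells received it. Each line was propagated in flasks of its own and gave 5 samples described as biological replicates. The sources used here do not say whether these 5 came from separate cultures, so p-values measure the spread between these samples, which may be partly technical.

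Each annexin carries a conserved core of repeated calcium-binding domains, and a short or long N-terminal tail that differs between members and binds partner proteins. Through the core they attach to phosphatidylserine and other acidic lipids on the inner face of membranes, where they take part in membrane trafficking, in resealing of the wounded plasma membrane and in the organisation of the cortical cytoskeleton. ANXA1 is also secreted and acts on formyl peptide receptors of leukocytes, while ANXA5 binds phosphatidylserine on dying cells and is used as a reagent for their detection.

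CD276, the edited gene, stood between 38.08 and 53.61 TPM in HCT116-WT libraries and between 4.4 and 7.42 TPM in HCT116-CD276KO libraries, so that all libraries matched their labels. TPM (transcripts per 1e6) are scaled for transcript length, so that levels can be compared between genes, but the read depth of each value is unknown. Changes were tested with limma on log2(TPM + 1) over 13581 genes, a gene being called at an adjusted p-value under 0.05. This gave 662 genes, 556 lower and 106 higher in HCT116-CD276KO cells, or 386 lower and 197 higher after median-of-ratios scaling, 385 and 253 after quantile normalization, and 699 and 600 after the length and GC correction described with the methods. Over all genes the log2 fold change had a median of -0.09, which the 3 scalings moved to between 0.00 and 0.01. The libraries differed in how their deviations followed transcript length, with Spearman correlations over genes from -0.52 in HCT116-CD276KO replicate 2 and -0.49 in replicate 3 to 0.43 in HCT116-WT replicate 1. Of 10 epithelial markers 7 were tested and 6 were called lower (KRT8, KRT18, KRT19, EPCAM, CDH1 and CLDN4) while CDX2 did not pass, the summed level of the list being 4292 to 5096 TPM in HCT116-WT and 3384 to 3858 TPM in HCT116-CD276KO libraries. After median-of-ratios scaling CDH1 and CLDN4 alone stayed called, and EPCAM and KRT19 were called under 6 of 19 alternatives. CDX1 was at 0 in every library, and CEACAM5 and VIL1 did not exceed 0.05 TPM. Of 10 markers of leukocytes, macrophages, fibroblasts and endothelium, 8 stayed under 1 TPM in all libraries, LUM at 0, PTPRC, PDGFRB and VWF at no more than 0.50, while COL1A1 (4.54 to 8.84 TPM) and CD68 (6.01 to 14.75 TPM) were above it. The summed level of these markers was 18.7 to 22.7 TPM in HCT116-WT and 10.9 to 19.4 TPM in HCT116-CD276KO libraries. The part of these shifts in the annexin values was not tested. In bulk RNA, fewer cells of a type and less RNA per cell cannot be told apart.

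The annexins covered a wide range of levels. ANXA1, ANXA5 and ANXA3 made up 72.8% ± 2.02 (SD, n = 5) of the summed TPM of the 10 members in HCT116-WT cells, and 71.7% ± 1.41 (SD, n = 5) in HCT116-CD276KO cells. The middle tier held ANXA11, ANXA7, ANXA6 and ANXA4, with means between 62.1 and 140 TPM in both groups. ANXA10, an atypical member that has lost the usual calcium-binding sites and is known from gastric epithelium, was the lowest of those tested at 5.79 ± 0.724 TPM (SD, n = 5) in HCT116-WT cells. ANXA9, likewise atypical, ranged from 0.45 to 1.07 TPM over the 10 libraries. ANXA13, known from the intestinal epithelium, was listed at 0 in 7 of the 10 libraries and at no more than 0.03 TPM in the others. ANXA8 and ANXA8L1, near-identical copies that are not among the members, did not exceed 0.16 TPM in any library.

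Of the 8 annexins tested, ANXA1 and ANXA10 were called, both lower in HCT116-CD276KO cells, against 4.87% of all genes called, 4.09% called lower and 0.781% called higher. In 3 members the groups did not overlap, against 7.61% of all genes. ANXA5 was higher in every HCT116-CD276KO library than in any HCT116-WT library, but did not pass the threshold. No member changed as much as 2-fold, against 0.486% of all genes called and past 2-fold. The median log2 fold change of the 8 was -0.10, close to that of all genes tested, and 0.00087 after median-of-ratios scaling. The promoters of ANXA1, ANXA10 and ANXA5 are printed first, since these are the members whose groups did not overlap.

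RefSeq start sites were matched for 9 members on GRCh38.p14, and the 250 bases upstream of the start were searched on both strands for 4 motifs. The TATA box was searched as TATAAA and the AP-1 site as TGANTCA. The GC box was searched as GGGCGG. The CCAAT box was searched by the letters of its name. Matches are in capitals, no match overlapped one of another motif in the sequences shown, and each sequence is written 5′ to 3′ in the direction of the gene. The ANXA1 window lies at chr9:73151615-73151864 on the plus strand, and the GENCODE gene starts at the next base.
ANXA1: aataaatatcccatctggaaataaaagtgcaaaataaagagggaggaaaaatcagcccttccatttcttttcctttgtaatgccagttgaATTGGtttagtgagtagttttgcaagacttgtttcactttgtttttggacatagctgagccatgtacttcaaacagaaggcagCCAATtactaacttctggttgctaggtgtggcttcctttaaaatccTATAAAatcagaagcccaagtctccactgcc
The ANXA10 window lies at chr4:168092287-168092536 on the plus strand, and the GENCODE gene again starts at the next base.
ANXA10: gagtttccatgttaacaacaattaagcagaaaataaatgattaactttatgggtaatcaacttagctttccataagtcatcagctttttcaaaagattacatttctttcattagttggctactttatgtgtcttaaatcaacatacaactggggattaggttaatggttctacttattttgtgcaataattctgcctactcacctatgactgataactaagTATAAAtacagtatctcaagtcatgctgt
The ANXA5 window lies at chr4:121696981-121697230 on the minus strand.
ANXA5: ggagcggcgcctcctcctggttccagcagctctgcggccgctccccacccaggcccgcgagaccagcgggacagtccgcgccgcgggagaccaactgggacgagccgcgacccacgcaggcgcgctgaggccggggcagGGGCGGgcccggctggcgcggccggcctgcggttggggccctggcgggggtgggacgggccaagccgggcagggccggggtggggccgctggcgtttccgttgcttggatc

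The ANXA1 window held a TATA box that begins 31 bases before the start and CCAAT boxes at 160 and 77 bases before it, and the ANXA10 window a TATA box that begins 29 bases before the start. Neither contained a CG dinucleotide, whereas the ANXA5 window contained 31 and a GC box at 111 bases before the start. A TATA box was found in 10.7% of the 35116 windows of this length, a CCAAT box in 32.0%, a GC box in 42.6% and an AP-1 site in 6.57%. No CG was present in 6.06% of them, and a TATA box together with no CG in 1.83%. Among the other members matched, every window held between 4 and 36 CG, and only 1 of the 3 windows of ANXA11 had a TATA box. These matches describe letters in a window and not binding sites.

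ANXA1 (ENSG00000135046, chromosome 9 from 73151865 to 73170393, plus strand, hg38) encodes the annexin known for anti-inflammatory action and as a substrate of the EGF receptor kinase. The HCT116-WT libraries gave 534.02, 492.77, 444.32, 528.33 and 497.73 TPM (replicates 1 to 5). The HCT116-CD276KO libraries gave 335.14, 320.94, 359.84, 362.93 and 348.29 TPM (replicates 1 to 5). The groups did not overlap, the lowest HCT116-WT library being replicate 3, and 6.19% of all genes tested were lower without overlap. Its mean was 499 ± 35.8 TPM (SD, n = 5) in HCT116-WT cells, and the 345 ± 17.5 TPM (SD, n = 5) of HCT116-CD276KO cells were 69.2% of that level. The log2 fold change was -0.53 (standard error 0.06, 95% interval -0.67 to -0.39), and the limma-adjusted p was 0.000475. By mean TPM the gene ranked 276 in HCT116-WT cells and 402 in HCT116-CD276KO cells among the 58050 genes of the table.

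ANXA10 (ENSG00000109511, chromosome 4 from 168092537 to 168187736, plus strand) was the other gene that fell. The HCT116-WT libraries gave 6.1, 6.73, 4.86, 5.94 and 5.31 TPM (replicates 1 to 5). The HCT116-CD276KO libraries gave 3.79, 3.4, 3.92, 4.01 and 3.72 TPM (replicates 1 to 5). Again the groups did not overlap, with HCT116-WT replicate 3 the lowest of its group. The mean in HCT116-CD276KO cells was 3.77 ± 0.234 TPM (SD, n = 5), or 65.1% of the HCT116-WT level. The log2 fold change was -0.50 (standard error 0.09, 95% interval -0.71 to -0.30), and the limma-adjusted p was 0.00950. At this level the pseudocount of 1 TPM shrinks the change, which was -0.60 with a pseudocount of 0.1.

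ANXA5 (ENSG00000164111, chromosome 4 from 121667946 to 121696995, minus strand) pointed the other way. The HCT116-WT libraries gave 401.78, 373.31, 310.91, 380.79 and 373.93 TPM (replicates 1 to 5). The HCT116-CD276KO libraries gave 451.88, 407.52, 410.63, 436.57 and 490.26 TPM (replicates 1 to 5). The groups did not overlap, as for 1.42% of the genes tested in this direction, although HCT116-WT replicate 1 and HCT116-CD276KO replicate 2 differed by less than the spread within either group. The means were 368 ± 34.0 and 439 ± 33.9 TPM (SD, n = 5 each). The log2 fold change was 0.26 (standard error 0.08, 95% interval 0.09 to 0.43), and the limma-adjusted p of 0.0858 on the values as deposited was above the threshold. It did pass after median-of-ratios scaling (log2 fold change 0.36, limma-adjusted p = 0.00834) and after the length and GC correction (0.29, limma-adjusted p = 0.00674), but not after quantile normalization (0.27, limma-adjusted p = 0.0969).

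ANXA1 and ANXA5 exchanged places in the order of levels. ANXA1 was the most abundant of the 10 members in each HCT116-WT library and ANXA5 in each HCT116-CD276KO library. The ratio of ANXA1 to ANXA5 was 1.33, 1.32, 1.43, 1.39 and 1.33 in HCT116-WT replicates 1 to 5, and 0.742, 0.788, 0.876, 0.831 and 0.71 in HCT116-CD276KO replicates 1 to 5. A ratio within a library does not depend on a scaling factor common to its genes, and it was 1.36 ± 0.0472 (SD, n = 5) against 0.789 ± 0.0668 (SD, n = 5). The mean log2 ratio differed by -0.79 between the groups. This ratio was chosen after the values had been seen, from genes whose groups did not overlap in opposite directions, so it could not overlap either and is given with no test.

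ANXA3 (ENSG00000138772, chromosome 4 from 78551747 to 78610451, plus strand), a member described in epithelial tumours, gave 365.33, 316.05, 281.32, 308.62 and 330.33 TPM in the HCT116-WT libraries (replicates 1 to 5). The HCT116-CD276KO libraries gave 259.49, 240.81, 279.54, 279.88 and 306.8 TPM (replicates 1 to 5). Replicate 5 of the edited cells lay within the HCT116-WT range. The log2 fold change was -0.23 (95% interval -0.41 to -0.05). Its unadjusted p was 0.0169, a level under 0.05 that 21.9% of all genes reached, and its limma-adjusted p was 0.136.

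The members of the middle tier did not pass the test. ANXA4 (ENSG00000196975, chromosome 2 from 69644425 to 69827112, plus strand), an annexin of the epithelial cell membrane, stood between 60.17 and 66.63 TPM in HCT116-WT and between 58.71 and 67.29 TPM in HCT116-CD276KO libraries. Its log2 fold change was -0.01 with a 95% interval from -0.14 to 0.12, the one nearest to 0 of the 8. ANXA6 (ENSG00000197043, chromosome 5 from 151100706 to 151157815, minus strand), whose core is duplicated and which binds the Ras inhibitor RASA1 and the kinase PRKCA, stood between 101.65 and 118.49 TPM and between 91.98 and 110.61 TPM, respectively, with a log2 fold change of -0.10 (95% interval -0.25 to 0.05). ANXA7 and ANXA11 carry long N-terminal tails that bind the calcium sensors SRI and PDCD6, and ANXA11 also links RNA granules to lysosomes. ANXA7 (ENSG00000138279, chromosome 10 from 73375101 to 73414076, minus strand) stood between 119.72 and 128.88 TPM in HCT116-WT and between 109.52 and 122.34 TPM in HCT116-CD276KO libraries, a log2 fold change of -0.10 (95% interval -0.22 to 0.01). ANXA11 (ENSG00000122359, chromosome 10 from 80150889 to 80205572, minus strand) stood between 129.82 and 154.64 TPM and between 123.92 and 146.31 TPM, a log2 fold change of -0.06 (95% interval -0.20 to 0.08). The groups overlapped in each of these genes. ANXA4, ANXA6 and ANXA11 had positive log2 fold changes after median-of-ratios scaling (0.09, 0.0039 and 0.04) and after the length and GC correction (0.07, 0.0074 and 0.15), so that no direction is given for them. That of ANXA7 was -0.0022 after median-of-ratios scaling and -0.03 after the correction, and no direction is given for it either.

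Neighbours in the order of levels were mostly apart. In HCT116-WT cells the order was ANXA1, ANXA5, ANXA3, ANXA11, ANXA7, ANXA6, ANXA4, ANXA10, ANXA9 and ANXA13, and only ANXA5 and ANXA3 had overlapping ranges. In HCT116-CD276KO cells only the ranges of ANXA7 and ANXA6 overlapped. Within each library, nevertheless, every member exceeded the next one of its group's order in all 5 libraries. The steps from ANXA4 down to ANXA10 were 10.8-fold in HCT116-WT and 16.5-fold in HCT116-CD276KO cells. Coefficients of variation of the tested members between replicates lay between 3.11% for ANXA7 and 12.5% for ANXA10 in HCT116-WT cells. In HCT116-CD276KO cells they lay between 4.28% for ANXA7 and 9.06% for ANXA3. ANXA9 (ENSG00000143412, chromosome 1 from 150982249 to 150995634, plus strand) had means of 0.704 ± 0.182 TPM (SD, n = 5) against 0.648 ± 0.252 TPM (SD, n = 5), and a limma-adjusted p of 0.844 when all genes above 0 TPM were tested.

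Proteins that bind annexins were looked at next. Of 7 such genes, all were tested, 1 fell, 1 rose and 5 did not pass, with a median log2 fold change of -0.11 (-0.013 after median-of-ratios scaling). Over all genes tested, 4.09% were called lower and 0.781% called higher. S100A11, a small calcium sensor that binds the tail of ANXA1, gave 227.25, 209.05, 235.42, 221.03 and 213.34 TPM in the HCT116-WT libraries (replicates 1 to 5). The HCT116-CD276KO libraries gave 155.75, 168.27, 156.38, 154.39 and 152.21 TPM (replicates 1 to 5). It thus fell without overlap to 71.2% of the HCT116-WT level, with -0.49 on the log2 scale (SE 0.05, limma-adjusted p = 0.000273), next to the 69.2% of ANXA1. S100A4, a calcium sensor of motile cells, rose from 159 ± 10.5 to 227 ± 14.3 TPM (SD, n = 5 each), or by 0.51 on the log2 scale (limma-adjusted p = 0.000792). S100A6, a partner of ANXA11 and the most abundant gene of this list, had means of 892 and 1057 TPM, with 0.25 on the log2 scale (limma-adjusted p = 0.142, or 0.0304 after the length and GC correction). SRI and PDCD6 had log2 fold changes of -0.11 and 0.07, and RASA1 and PRKCA of -0.25 and -0.27, the limma-adjusted p of these 4 genes lying from 0.246 to 0.611. In HCT116-CD276KO replicates 2 and 3, RASA1 was at 8.43 and 10.6 TPM and PRKCA at 5.48 and 5.31 TPM. The rest of that group gave 13.59 to 15.53 TPM for RASA1 and 8.35 to 10.58 TPM for PRKCA.

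The receptors of secreted ANXA1 stayed near 0 in these cells. FPR1 did not exceed 0.26 TPM in any library, FPR2 was listed above 0 in 1 library of each group at 0.04 TPM, and FPR3 was listed at 0 throughout. PLA2G4A, the cytosolic phospholipase whose activity ANXA1 is known to restrain, was the only gene of this list that was tested, with means of 14.6 and 14.9 TPM and a log2 fold change of 0.03 (95% interval -0.24 to 0.30).

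The lipid to which annexins bind is moved between the membrane leaflets by flippases and scramblases. Of 8 such genes 7 were tested and none was called by limma, against 4.87% of all genes. An unadjusted p-value under 0.05 was reached by 2 of the 7, against 21.9% of all genes. The median log2 fold change of the 7 was -0.26 (-0.17 after median-of-ratios scaling). The scramblase PLSCR1 was lower without overlap, at 34.2 ± 1.15 against 29.5 ± 2.02 TPM (SD, n = 5 each), but its limma-adjusted p was 0.0914. Over all genes tested, 6.19% were lower without overlap. PLSCR1 was called under 0 of 19 alternatives, and its log2 fold change of -0.21 was -0.11 after median-of-ratios scaling (limma-adjusted p = 0.410). ATP11A had the log2 fold change furthest from 0 in this list at -0.58 (limma-adjusted p = 0.142), and was at 12.75 and 13.08 TPM in HCT116-CD276KO replicates 2 and 3, the libraries with the strongest trend against long transcripts, and between 20.3 and 28.78 TPM in the other 3. TMEM30A, the shared subunit of the flippases, had a log2 fold change of -0.0077, ATP11B of -0.41 and the scramblase ANO6 of -0.32, the limma-adjusted p of each being at least 0.280. In HCT116-CD276KO replicates 2 and 3, ATP11B was at 17.21 and 20.0 TPM and ANO6 at 14.51 and 16.94 TPM. The rest of that group gave 33.32 to 41.83 TPM for ATP11B and 24.82 to 28.98 TPM for ANO6. With the trends in length and GC content removed, ATP11A changed by -0.33, ATP11B by -0.23 and ANO6 by -0.13 (log2 scale). TMEM30A then changed by 0.12, and the limma-adjusted p of these genes lay from 0.111 to 0.404. That fit removes both trends at once, so the part of length alone was not tested. XKR8 and PLSCR3 had log2 fold changes of -0.26 and -0.07 (limma-adjusted p = 0.282 and 0.627), and ATP8A1 was not tested, at 0.17 to 1.56 TPM.

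Genes of plasma membrane repair, in which ANXA1, ANXA5 and ANXA6 take part, were followed in a list of 12 genes. Of these 11 were tested, 3 fell and 8 did not pass, against 4.09% of all genes tested that were called lower. The median log2 fold change of the list was -0.20 (-0.097 after median-of-ratios scaling). CAPN1, a catalytic subunit of the calcium-activated protease that cleaves cortical proteins at wounds, fell from 286 ± 27.9 to 123 ± 14.5 TPM (SD, n = 5 each), which is -1.22 on the log2 scale (limma-adjusted p = 1.29e-05). Its regulatory subunit CAPNS1 fell from 502 ± 20.2 to 440 ± 17.3 TPM (SD, n = 5 each), which is -0.19 on the log2 scale, but its limma-adjusted p of 0.04997 lay at the threshold and was above it in 18 of 19 alternatives. The other catalytic subunit, CAPN2, was lower without overlap at -0.22 (limma-adjusted p = 0.0655), as were 6.19% of all genes tested. It was called under 0 of 19 alternatives, with -0.12 after median-of-ratios scaling (limma-adjusted p = 0.205) and -0.10 after the length and GC correction (limma-adjusted p = 0.186). MYOF, a ferlin that fuses vesicles with the membrane, gave 105.86, 102.47, 87.56, 87 and 101.33 TPM in the HCT116-WT libraries (replicates 1 to 5). The HCT116-CD276KO libraries gave 80.8, 42.49, 42.05, 64.48 and 76.44 TPM (replicates 1 to 5). The groups did not overlap. The log2 fold change was -0.70 (limma-adjusted p = 0.0472), and the call held under 9 of 19 alternatives. Among these were median-of-ratios scaling (-0.60, limma-adjusted p = 0.0432), quantile normalization (-0.62, limma-adjusted p = 0.0492) and the length and GC correction (-0.48, limma-adjusted p = 0.00965). The call was lost without HCT116-CD276KO replicates 2 and 3 (-0.39, limma-adjusted p = 0.0817). Leaving out any single library other than HCT116-CD276KO replicate 1 or 5 also ended the call, with a limma-adjusted p from 0.0636 to 0.122. PDCD6IP, a scaffold of the ESCRT machinery at wounds, had a log2 fold change of -0.38 (limma-adjusted p = 0.0787, or 0.0331 at -0.21 after the length and GC correction), and AHNAK, a scaffold of the cell cortex, of -0.20 (limma-adjusted p = 0.484). The change of AHNAK turned to 0.07 under that correction (limma-adjusted p = 0.505), so that no direction is given for it. PDCD6IP and AHNAK were both lowest in HCT116-CD276KO replicates 2 and 3. PDCD6IP was at 145.65 and 137.22 TPM there, and AHNAK at 40.7 and 39.16 TPM. The highest library for AHNAK was HCT116-CD276KO replicate 1, at 74.22 TPM. CHMP4B, VPS4A and VPS4B of the ESCRT machinery lay between -0.16 and 0.06, and DYSF did not exceed 0.43 TPM.

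Among the genes tested, those whose log2(TPM + 1) followed ANXA1 most closely over the 10 libraries were IL18, PPARG, PKIB, ARMC9 and GJB2, with Pearson correlations between 0.978 and 0.991. These values describe a pattern over 10 libraries in which the groups differ, and are no evidence of a shared control. In the edited cells IL18, an inflammatory cytokine of epithelia, fell from 129 ± 14.3 to 74.5 ± 5.03 TPM (SD, n = 5 each). PPARG, a nuclear receptor of fatty acids, fell from 43.3 ± 3.35 to 20.7 ± 1.62 TPM (SD, n = 5 each). PKIB, an inhibitor of protein kinase A, fell from 49.4 ± 5.21 to 16.8 ± 2.43 TPM, and ARMC9 from 12.1 ± 1.18 to 6.14 ± 0.671 TPM (SD, n = 5 each). GJB2, a gap junction protein, fell from 25.5 ± 1.17 to 19.0 ± 0.994 TPM (SD, n = 5 each). The 5 genes had changes of -1.51 to -0.41 on the log2 scale, with a limma-adjusted p from 7.28e-06 to 0.00357. They were picked for following ANXA1, whose groups differ, so a difference between the groups was fixed by the choice. Their p-values are therefore no separate evidence.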

How the data were processed

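Polyadenylated RNA of 10 HCT116 samples was sequenced as single reads of 50 bases. The authors mapped the reads to hg38/GRCh38 with STAR 2.5.2b, and quantified the genes of Ensembl 86 with RSEM 1.3.0 and featureCounts 1.5.1. The values used here are the TPM that the authors deposited, with 2 decimals and no further scaling between libraries. Which program gave them is not stated. Since TPM keep no counts, depth is unknown and no counting interval is given.

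For genes averaging 1 TPM or more over the libraries, groups were compared with limma 3.58.1 (R 4.3.3) on log2(TPM + 1) with a variance trend and Benjamini-Hochberg adjustment over all genes. This scale understates changes of low genes. The test was tried on simulated data. Positions and transcript lengths came from GENCODE 44 on hg38 (a newer release than the authors'), and promoters from RefSeq (GRCh38.p14). Python 3.11.15, numpy 2.4.6, pandas 2.3.3, scipy 1.17.1 and matplotlib 3.10.9 were used.

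The fit was repeated with the pseudocount at 0.1, over every gene above 0 TPM, over genes averaging 5 TPM or more, after median-of-ratios scaling, quantile normalization, removal of each library's trend with transcript length and GC content by local regression (share 0.3), with robust variance moderation, with a replicate block and with omission of each library. Omission of HCT116-CD276KO replicates 2 and 3, and the ANXA1 to ANXA5 ratio, were added after the values were seen. Named were CD276, the 10 annexins, the list genes that were called or had the highest TPM, and the 5 genes most like ANXA1. PRKCA, ATP11A, ATP8A1, XKR8, PLSCR3, DYSF, CHMP4B, VPS4A, PTPRC, LUM, ANXA8 and ANXA8L1 were named after their values were seen. The members and lists were chosen with earlier results of these data known. A further flippase or scramblase gene was left out of its list and is not reported here.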

Additional observations from a re-analysis of the deposited data

Results flagged for a closer look

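In 82 groups of 5 values, over CD276, the annexins and the genes of the lists around them, 4 held a highest or lowest library whose gap to its neighbour, as a share of the range, was over Dixon's 95% limit. Chance gives this in about 1 of 20 groups, here 4.1, so the number is close to chance. For S100A11, HCT116-CD276KO replicate 2 gave 168.27 TPM, and the rest of its group 152.21 to 156.38 TPM, so that the gap was 0.740. The same library had the strongest negative trend with transcript length (Spearman correlation over genes -0.52), and the part of the trend in the value was not tested. ANXA13 was listed at 0.03 TPM in HCT116-CD276KO replicate 2 and at 0 in the others, a gap of 1, the whole range. FPR2 was listed at 0.04 TPM in HCT116-WT replicate 1 and in HCT116-CD276KO replicate 4 and at 0 in the others of each group, a gap of 1 in both. The values of ANXA13 and FPR2 lie near the smallest step of the table.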

How the results depend on the processing

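ANXA1 stayed called and lower under all 19 alternatives, at -0.57 to -0.43 on the log2 scale (limma-adjusted p from 2.66e-06 to 0.00721). CD276 kept its fall in all of them (-3.04 to -2.74). The number of annexins called was 2, was 2 with each library left out in turn, was 3 after median-of-ratios scaling and after the length and GC correction, where ANXA5 was added, and was 1 with a mean of at least 5 TPM, where ANXA10 was no longer tested, and with the replicate block, where ANXA10 was lost (limma-adjusted p = 0.0531). The block rests on a shared number alone: the deviations of same-numbered libraries correlated between -0.18 and 0.12 over genes. Of the HCT116-WT libraries, only replicate 5 correlated best with the HCT116-CD276KO library of its own number. ANXA5 was called under 2 of 19 alternatives (0.20 to 0.36 on the log2 scale, limma-adjusted p from 0.00674 to 0.168). ANXA3 was called under none (-0.27 to -0.13).

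Directions turned for ANXA4 after median-of-ratios scaling (0.090), quantile normalization (0.083), the length and GC correction (0.070) and without HCT116-CD276KO replicates 2 and 3 (0.025), and omission of 1 library gave -0.038 to 0.014. They turned for ANXA6 (0.0039 and 0.0074) and ANXA11 (0.039 and 0.15) under median-of-ratios scaling and the correction. The difference in the log2 ratio of ANXA1 to ANXA5 was -0.79, was -0.80 after the correction and lay between -0.83 and -0.75 with 1 library left out. The 4 lists around the annexins held 7, 1, 7 and 11 tested genes, of which 5 were called, against 4.87% of all genes tested. After the correction 7 were called, in a fit that called 1299 of 13472 genes. The number was 3 with all genes above 0 TPM and 3 without HCT116-CD276KO replicates 2 and 3. With 1 library left out it was from 3 to 5, being 3 without HCT116-WT replicate 1, 2, 4 or 5 or HCT116-CD276KO replicate 2, 3 or 4. S100A11, S100A4 and CAPN1 were called in all alternatives. The number of genes called was 662, and 1299 after the correction, 378 with the block, 339 without HCT116-CD276KO replicates 2 and 3, and 343 to 857 with 1 library left out. It was 345, 376, 421 and 343 without HCT116-WT replicate 1, 2, 4 and 5, and 407 and 375 without HCT116-CD276KO replicate 3 and 4. It was 857, 462 and 695 without HCT116-CD276KO replicate 1, 2 and 5, and 663 without HCT116-WT replicate 3. Omissions leave fewer libraries and filters change the genes tested. The causes of these shifts were not tested.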

Other observations

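Of 9847 tested genes with a promoter window, 4.92% were called, 410 lower and 74 higher. Of 60 genes with no CG in the window 13.3% were called, 7 lower and 1 higher, and of 481 with a TATA box 9.98%, 36 lower and 12 higher. Of 16 genes with a TATA box and no CG, 5 were called, 4 lower and 1 higher, and ANXA1 and ANXA10, from which the class was taken, are among them. Without them 3 of 14 were called. Both genes are also among the 60 with no CG and the 481 with a TATA box, and were not left out of those shares. With a TATA box absent and a CG present, 4.64% of 9322 genes were called. These shares were looked at after the windows of ANXA1 and ANXA10 had been seen and are given with no test.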
